A study of Mus musculus with 16 samples.

Results

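The comparison described here is normal development of the medial prefrontal cortex over the first 2 weeks after birth: 4 libraries of control mouse pups at 14 days (P14) against 4 at 1 day (P1). These 8 libraries were chosen by their labels from the 16 of the study, and a gene entered the comparison when both age tables list it. All animals were male mice of the outbred ICR stock with no transgene. The control dams were left unstressed in pregnancy, and the other 8 libraries, 4 at each age, came from offspring of dams stressed in pregnancy. RNA was polyadenylated RNA of the dissected tissue, so each library mixes all of its cells. The labels do not say that libraries came from separate animals or litters, so the p-values measure only the spread between these samples, which may be technical.

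In the rodent cortex the projection neurons are born before birth, while the days after birth are the time of axon growth, synapse formation, inhibitory circuit assembly, astrocyte maturation and the onset of myelination. Progenitors leave the cell cycle or turn to making glia, the subunits of transmitter receptors are exchanged, and the chloride pump of mature neurons takes over from the importer of young ones. Microglia pass from a phagocytic early form to the ramified resident form over the same period.

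The files give 18268 genes in both tables, of which 16520 had enough reads to be tested. The control libraries held 33977413 to 50587460 reads at P1 and 15068575 to 72978561 at P14, and P14 replicate 3 was the shallowest. Levels are counts-per-million values (CPM), that is reads of a gene relative to the library's TMM-scaled total over the tested genes, and the values of 4 libraries are always given in the order of replicates 1 to 4. Values with ± are means and SD of the 4 libraries of an age unless marked SE. A gene is called higher or lower at P14 when the edgeR quasi-likelihood test over all 16520 genes gives a Benjamini-Hochberg adjusted p below 0.05. It is called past 2-fold when the same model, asked whether the change exceeds 2-fold, passes that threshold. All P1 libraries stand in one table and all P14 libraries in the other, and any difference in handling between the tables cannot be told apart from age. In bulk tissue fewer cells of a type and less RNA per cell cannot be told apart either. The cortical label was matched by the projection neuron markers Slc17a7, Neurod6 and Tbr1, each above 100 CPM on average in at least 1 of the ages: Neurod6 stood at 994 ± 143 CPM at P1 and 277 ± 10.8 CPM at P14, and Tbr1 at 349.9 ± 59.4 CPM at P1 and 191 ± 13.7 CPM at P14.

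Most genes differed between the ages. Of the 16520 genes tested, 12189 (73.8%) passed, 5952 (36.0%) higher and 6237 (37.8%) lower at P14, and the median log2 change over all genes was -0.03. A change past 2-fold was called for 1900 genes (11.5%) upwards and 1419 (8.59%) downwards, and in 11293 genes (68.4%) the 4 libraries of one age did not overlap those of the other, 33.6% with P14 above and 34.7% with P14 below. The 1900 genes past 2-fold upwards took 7.75% to 8.58% of a library's reads at P1 and 25.8% to 26.8% at P14. The 1419 downward genes took 14.8% to 15.6% at P1 and 3.80% to 4.13% at P14. The balance of the 2 directions depended on the scaling: with total reads in place of TMM the median of all genes moved by -0.21 and 4596 genes were higher and 7908 lower (36.8% of calls higher, against 48.8%). Past 2-fold the majority turned round, with 1488 higher and 2021 lower with total reads and 1709 and 1673 with upper-quartile scaling. The shares of all genes called higher (36.0%) and lower (37.8%) are the background of each gene list below, and where a list's shares lie near them only its members are described. For counts past 2-fold the background is 11.5% higher and 8.59% lower. None of the 12189 calls became a call in the opposite direction in any of the alternatives run, though some lost their call.

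**Figure D1:**
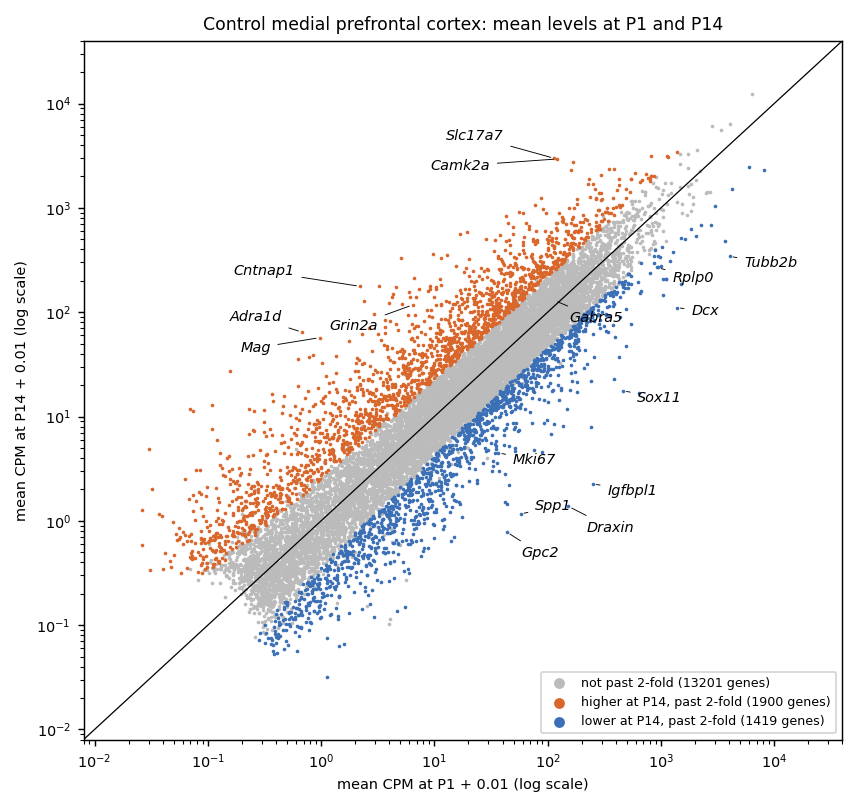
Mean CPM of each tested gene at P1 (x axis) and P14 (y axis), both on log scales after adding 0.01, with genes past 2-fold coloured and the diagonal marking equal levels. The 1900 genes above and 1419 below the grey points spread over the whole range of levels, and Adra1d, Cntnap1, Draxin and Igfbpl1 lie far from the diagonal.

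Among genes averaging at least 20 CPM, the largest falls included genes known from young neurons and growing axons. Draxin (ENSMUSG00000029005, chromosome 4, 148098437 to 148130698, minus strand), a secreted repulsive guidance protein for commissural axons, was measured at 149, 138, 150.2 and 174 CPM at P1 and 1.61, 1.02, 1.47 and 1.35 CPM at P14. Every P14 library lay far below every P1 library, with a log2 fold change of -6.82 ± 0.132 (SE), adjusted p = 3.79e-12. Igfbpl1 (ENSMUSG00000035551, chromosome 4, 45809468 to 45826923, minus strand), a secreted protein related to the insulin-like growth factor binding proteins, was measured at 289, 195, 267 and 250.3 CPM at P1 and 2.49, 1.21, 4.06 and 1.26 CPM at P14. Its log2 fold change of -6.99 ± 0.349 (SE), adjusted p = 6.9e-07, was the largest fall of all named here, and its P14 libraries scattered more than those of Draxin. Sox11, a transcription factor of newborn neurons, fell from 462 ± 72.9 to 17.6 ± 2.14 CPM. Gpc2, a glypican of growing axons, fell from 43.7 ± 5.78 to 0.769 ± 0.276 CPM, and Trim67, a brain-enriched ubiquitin ligase, from 642 ± 122 to 16.9 ± 4.61 CPM (SD, n = 4 in each group). The RNA-binding protein gene Mex3a, the glycosyltransferase B3gnt5, the secreted Scube3, the kinase Stk32b and the tubulin carboxypeptidase Vash2 fell by 4.08 to 4.97 on the log2 scale. Tpm3-rs7, a tropomyosin 3 related sequence whose reads may be split with its parent gene, was uneven at P1, at 2.74, 35.6, 71.1 and 66.6 CPM, and its log2 fold change of -4.92 rests on replicates 2 to 4.

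The largest rises included genes known from myelinated axons, excitatory synapses and astrocytes. Adra1d (ENSMUSG00000027335, chromosome 2, 131545850 to 131562283, minus strand), the alpha-1D adrenergic receptor, was measured at 0.457, 1.04, 0.506 and 0.659 CPM at P1 and 67.2, 65.8, 63.2 and 61.4 CPM at P14. All 4 P14 libraries lay within a narrow band far above P1, with a log2 fold change of 6.56 ± 0.164 (SE), adjusted p = 3.07e-11. Cntnap1 (ENSMUSG00000017167, chromosome 11, 101170523 to 101190724, plus strand), the axonal protein Caspr of the junction between axon and myelin, was measured at 2.44, 1.75, 2.82 and 1.76 CPM at P1 and 169.8, 194, 184 and 160.2 CPM at P14. The groups did not overlap, with a log2 fold change of 6.34 ± 0.142 (SE), adjusted p = 1.63e-11. Itpka, an inositol trisphosphate kinase of dendritic spines, rose from 3.23 ± 1.01 to 177 ± 4.38 CPM, Icam5, the dendritic adhesion molecule telencephalin, from 9.81 ± 2.41 to 359 ± 13.4 CPM, and Slc30a3, the zinc transporter of synaptic vesicles, from 4.56 ± 1.34 to 173 ± 11 CPM. Rasgrp1, an exchange factor for Ras, reached 557, 591, 586 and 499.9 CPM at P14 from 19.2, 20.4, 14.8 and 12.2 at P1. The cholecystokinin receptor gene Cckbr, the lysosomal membrane protein gene Lamp5 and the actin-associated Fam107a rose by 5.04, 5.10 and 5.75 on the log2 scale. At the other end, 8 genes of at least 200 CPM had the smallest changes under TMM scaling, among them Hsp90ab1 (a cytosolic chaperone, 2231 ± 107 CPM at P1 and 2236 ± 113 CPM at P14), Nap1l1 (a histone chaperone, 208 ± 6.12 CPM at P1 and 208 ± 9.05 CPM at P14) and Pja1 (a ubiquitin ligase, 299 ± 4.29 CPM at P1 and 298 ± 8.48 CPM at P14).

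Most genes of cell division fell. Of 25 tested genes, 23 were lower at P14 (37.8% of all genes) and 21 of these past 2-fold (8.59% of all genes), and the list's median log2 change was -2.77 beside -0.03 for all genes. Mki67, the marker of cycling cells, was measured at 49.8, 28.7, 34.3 and 34 CPM at P1 and 5.13, 2.86, 4.48 and 5.41 CPM at P14. P1 replicate 1 was the highest and the ages did not overlap, with a log2 fold change of -3.04 ± 0.243 (SE), adjusted p = 3.77e-06. The ribonucleotide reductase subunit gene Rrm2 fell from 23.8 ± 4.91 to 2.46 ± 0.343 CPM, the kinetochore gene Cenpf from 15.5 ± 2.39 to 2.21 ± 0.331 CPM, the spindle gene Tpx2 from 20.8 ± 4.38 to 3.9 ± 0.269 CPM and the replication helicase subunit gene Mcm5 from 25.7 ± 3.37 to 7.54 ± 0.453 CPM. P1 replicate 1 also had the highest sum of the list, at 794, 521, 600.4 and 563 CPM, against 221, 209, 220.3 and 220.3 at P14. The 2 members that did not fall were Ccnd1 (cyclin D1), at -0.02 and not called (-0.24 and called as lower with total reads as the scale), and Ccne1 (cyclin E1), which rose from 4.55 ± 0.50 to 10.9 ± 0.518 CPM; both were named after their values were seen.

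The promoters of 3 of these genes are shown because promoters of late cell cycle genes are known for a CCAAT box, bound by the factor NF-Y, near an element called CHR with the letters TTTGAA. Among the 25 tested genes, 20 had a promoter in the RefSeq table (GRCm38.p6, 250 bases before to 50 after the start, 300 in all). CCAAT or its reverse complement ATTGG was found in 17 of the 20 (85.0%) and TTTGAA or TTCAAA in 10, and all 10 held both. The same letters were in 38.2% and 11.8% of the promoters of 11995 tested genes and in 37.4% and 17.9% of all 32851 promoters in the table. The genes shown are 3 of these 10 with large falls, a choice made after their values were seen. The 3 need not be the largest falls of the 10. Shown are Top2a (DNA topoisomerase II, log2 fold change -3.62), Ube2c (the ubiquitin-conjugating enzyme of mitotic exit, -3.2) and Plk1 (a mitotic kinase, -3.07). Capitals mark the motifs on either strand, and in Ube2c a CCAAT and an ATTGG overlap by 2 letters. A match of letters is not evidence of binding.
Top2a promoter, chr11:99024140-99024439, minus strand: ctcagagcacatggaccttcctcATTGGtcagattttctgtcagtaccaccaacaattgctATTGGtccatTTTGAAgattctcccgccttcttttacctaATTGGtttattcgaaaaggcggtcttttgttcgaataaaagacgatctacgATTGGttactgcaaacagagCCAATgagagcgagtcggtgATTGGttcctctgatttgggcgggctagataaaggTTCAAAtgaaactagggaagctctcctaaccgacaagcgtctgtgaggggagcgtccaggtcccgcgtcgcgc
Ube2c promoter, chr2:164769679-164769978, plus strand: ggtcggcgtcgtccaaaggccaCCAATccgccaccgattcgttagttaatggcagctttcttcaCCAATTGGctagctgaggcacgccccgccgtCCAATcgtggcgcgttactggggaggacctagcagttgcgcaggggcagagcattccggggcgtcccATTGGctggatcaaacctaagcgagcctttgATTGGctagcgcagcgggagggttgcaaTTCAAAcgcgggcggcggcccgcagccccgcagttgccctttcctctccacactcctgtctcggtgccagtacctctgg
Plk1 promoter, chr7:122159185-122159484, plus strand: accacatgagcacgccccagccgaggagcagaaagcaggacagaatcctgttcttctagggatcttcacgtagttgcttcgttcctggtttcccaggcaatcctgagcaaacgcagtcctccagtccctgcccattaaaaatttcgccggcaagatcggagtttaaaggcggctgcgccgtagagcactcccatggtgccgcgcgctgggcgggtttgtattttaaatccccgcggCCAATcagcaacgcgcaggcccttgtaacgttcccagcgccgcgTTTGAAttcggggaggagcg
Top2a itself was measured at 53.9, 29, 34.7 and 31.5 CPM at P1 and 3.49, 2.26, 2.59 and 3.65 CPM at P14, Ube2c at 14.8 ± 3.22 CPM at P1 and 1.58 ± 0.484 CPM at P14, and Plk1 at 12.2 ± 2.94 CPM at P1 and 1.46 ± 0.384 CPM at P14. For all 3 genes P1 replicate 1 was the highest library and every P14 library lay below every P1 library.

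Progenitor genes and regulators of fetal growth mostly fell as well. Of 19 progenitor genes 12 were lower and 4 higher, beside 37.8% and 36.0% of all genes, with a median of -1.9. Nes, the intermediate filament nestin of radial glia, was measured at 91.5, 76.1, 79.6 and 89.8 CPM at P1 and 17.3, 15.3, 14.7 and 12.1 CPM at P14, and the groups were far apart, with a log2 fold change of -2.5 ± 0.105 (SE), adjusted p = 7.91e-10. Vim (vimentin) fell from 159.7 ± 13.2 to 42.8 ± 4.69 CPM, Fabp7, the fatty acid binding protein of radial glia, from 376 ± 62.8 to 76 ± 5.11 CPM, and Tnc (tenascin C, a matrix protein) from 176 ± 19.8 to 26.9 ± 4.33 CPM. Eomes, the T-box factor of intermediate progenitors, was measured at 25.9, 13.6, 15.7 and 10.9 CPM at P1 and 0.226, 2.65, 3.01 and 0.0966 CPM at P14. Its P14 libraries split into 2 near 0 and 2 near 3 CPM (replicates 2 and 3), while all P1 libraries were higher, and the log2 fold change was -3.68 with an adjusted p of 0.00836. Eomes also marks projection neurons of the olfactory bulb. Tbx21, another bulb marker named after its values were seen, was at 0.166, 0.69, 1.4 and 0.266 CPM in the same P14 libraries, and the part of bulb tissue in the Eomes values was not tested.

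Of 18 fetal growth regulators 17 were lower, 14 past 2-fold (8.59% of all genes), and 0 higher, with a median of -2.5. Mycn and Mycl, growth-promoting factors of the Myc family, stood at 157 ± 10.9 CPM at P1 and 36.5 ± 3.07 CPM at P14 and at 172 ± 12.2 CPM at P1 and 34.7 ± 3.37 CPM at P14 respectively. Tmsb10, an actin-sequestering thymosin, fell from 1282 ± 32.3 to 382 ± 34.4 CPM. Hmga2, a chromatin protein of fetal stem cells, was already low, at 0.628, 0.329, 0.426 and 0.22 CPM at P1 and 0.0905, 0.0172, 0.070 and 0 CPM at P14, and P14 replicate 4 had no read of it. Lin28b, the fetal blocker of let-7 processing, did not pass, at 1.45 ± 0.726 CPM at P1 and 1.02 ± 0.213 CPM at P14; P1 replicate 3 alone was above 2 CPM, and without it the log2 fold change of -0.44 was -0.05.

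Imprinted genes that control fetal growth mostly fell, with 1 clear exception. Of 16 tested 12 were lower, 6 past 2-fold (8.59% of all genes), and 1 was higher (median -0.99). Cdkn1c, the maternally expressed cell cycle inhibitor p57, was measured at 99.8, 78.5, 91.7 and 124 CPM at P1 and 10.3, 7.98, 9.03 and 9.91 CPM at P14, without overlap and with a log2 fold change of -3.4 ± 0.145 (SE), adjusted p = 4.07e-09. Nnat (neuronatin) fell from 1496 ± 256 to 187 ± 14.9 CPM, Zim1, a zinc finger gene, from 9.72 ± 2.05 to 3.12 ± 0.465 CPM and Igf2, the insulin-like growth factor that the meninges and choroid plexus also make, from 49.3 ± 15.9 to 15.7 ± 1.97 CPM. P1 replicate 4 was the highest for Igf2, at 46.1, 38, 40.5 and 72.5 CPM, and also had the highest sum of the meningeal list, at 1599, 1491, 1399 and 1777 CPM; the part of the meninges in Igf2 was not tested. Peg3, a paternally expressed zinc finger gene, went the other way, at 72.7, 72.3, 113 and 75 CPM at P1 and 230.3, 265, 236 and 219 CPM at P14, with a log2 fold change of 1.52 ± 0.142 (SE), adjusted p = 3.88e-06.

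Genes of young, growing neurons fell or did not pass. Of 26 tested 24 were lower, 18 past 2-fold (8.59% of all genes), and 0 higher, with a median of -1.83. Dcx (doublecortin, a microtubule protein of migrating neurons) was measured at 1309, 1305, 1280 and 1624 CPM at P1 and 123, 96.7, 113 and 109 CPM at P14. P1 replicate 4 was the highest, no library overlapped the other age, and the test gave a log2 fold change of -3.64 ± 0.105 (SE), adjusted p = 2.68e-11. Cd24a, a surface protein of young neurons, fell from 1035 ± 88.3 to 146 ± 12.1 CPM, and Nhlh2, a basic helix-loop-helix factor, from 14 ± 1.02 to 0.635 ± 0.147 CPM. Tubulin genes moved in both directions: the early Tubb2b fell from 4038 ± 276 to 343 ± 55.6 CPM and the neuronal Tubb3 from 3016 ± 319 to 1039 ± 112 CPM. Tubb4a, an isotype of mature axons and oligodendrocytes, rose from 548 ± 70.7 to 1151 ± 77.7 CPM, while Tubb2a did not pass, at 1486 ± 90.3 CPM at P1 and 1582 ± 151 CPM at P14. The neurofilament gene Nefh, whose heavy subunit is typical of mature axons, was measured at 2.8, 3.03, 3.83 and 3.05 CPM at P1 and 65.2, 60, 60.6 and 62.5 CPM at P14, and rose by 4.3 on the log2 scale; Ina, the early neuronal filament internexin, fell from 417 ± 48.7 to 254 ± 19.2 CPM.

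Among 28 axon guidance genes 9 were higher and 11 lower, shares near the 36.0% and 37.8% of all genes, with a median of -0.09. The 4 members with the smallest p were a receptor that fell and 3 secreted ligands that rose. Robo1, a receptor for Slit ligands, fell from 277 ± 37.1 to 105 ± 9.13 CPM. The ligands Slit2 and Slit3 rose from 14.8 ± 1.83 to 63.2 ± 8.92 CPM and from 5.28 ± 1.26 to 40.8 ± 3.26 CPM. Sema3e, a secreted semaphorin, rose from 4.02 ± 0.369 to 28.3 ± 3.36 CPM. Each of these 4 genes kept its P1 and P14 libraries apart, as did 68.4% of all genes. Having been picked by smallest p, they do not stand for the list.

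Markers of cortical layers changed member by member. Among 17 deep-layer genes 12 were lower and 2 higher (median -0.56). Ntsr1, the neurotensin receptor of layer 6 corticothalamic neurons, was measured at 72.8, 79.4, 65.3 and 95.7 CPM at P1 and 26, 17.7, 19.2 and 20.8 CPM at P14, with no overlap and a log2 fold change of -1.9 ± 0.142 (SE), adjusted p = 5.01e-07. The corepressor gene Tle4 fell from 130.5 ± 19.5 to 57.4 ± 7.53 CPM. Etv1, a factor of layer 5 neurons, rose from 60.3 ± 3.94 to 149 ± 11 CPM, and Cplx3, a complexin of deep subplate neurons, from 0.536 ± 0.199 to 6.11 ± 1.25 CPM. Among 16 upper-layer genes 8 were higher and 5 lower (36.0% and 37.8% of all genes); the median of 0.15 turned to -0.05 with total reads as the scale. Cux2 rose from 49.9 ± 4.77 to 142 ± 5.09 CPM and Calb1, the calcium buffer calbindin, from 17.7 ± 2.92 to 119 ± 15.9 CPM, while Pou3f3, a POU factor that specifies upper layers, fell from 402 ± 56 to 173 ± 11.4 CPM.

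Markers of Cajal-Retzius cells, the transient reelin-secreting neurons of layer 1, included 7 lower and 0 higher genes of 10, with a median of -1.46. Trp73, the p73 gene, was measured at 14, 14.1, 14.2 and 16.2 CPM at P1 and 1.87, 1.53, 2.1 and 1.67 CPM at P14, with a log2 fold change of -3.06 ± 0.119 (SE), adjusted p = 2.57e-10. Lhx5 fell from 5.41 ± 0.691 to 0.321 ± 0.0583 CPM. Reln, which interneurons also express, fell less, from 371 ± 50.9 to 171 ± 20.7 CPM, a log2 fold change of -1.11 that was not past 2-fold. Calb2 (calretinin) overlapped between the ages and did not pass, at 26.7 ± 7.18 CPM at P1 and 37 ± 4.71 CPM at P14, with an adjusted p of 0.0566; it passed with DESeq2 or its size factors, with limma, with the replicate block, and without P1 replicate 3 (0.6) or P1 replicate 4 (0.29).

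**Figure D2:**
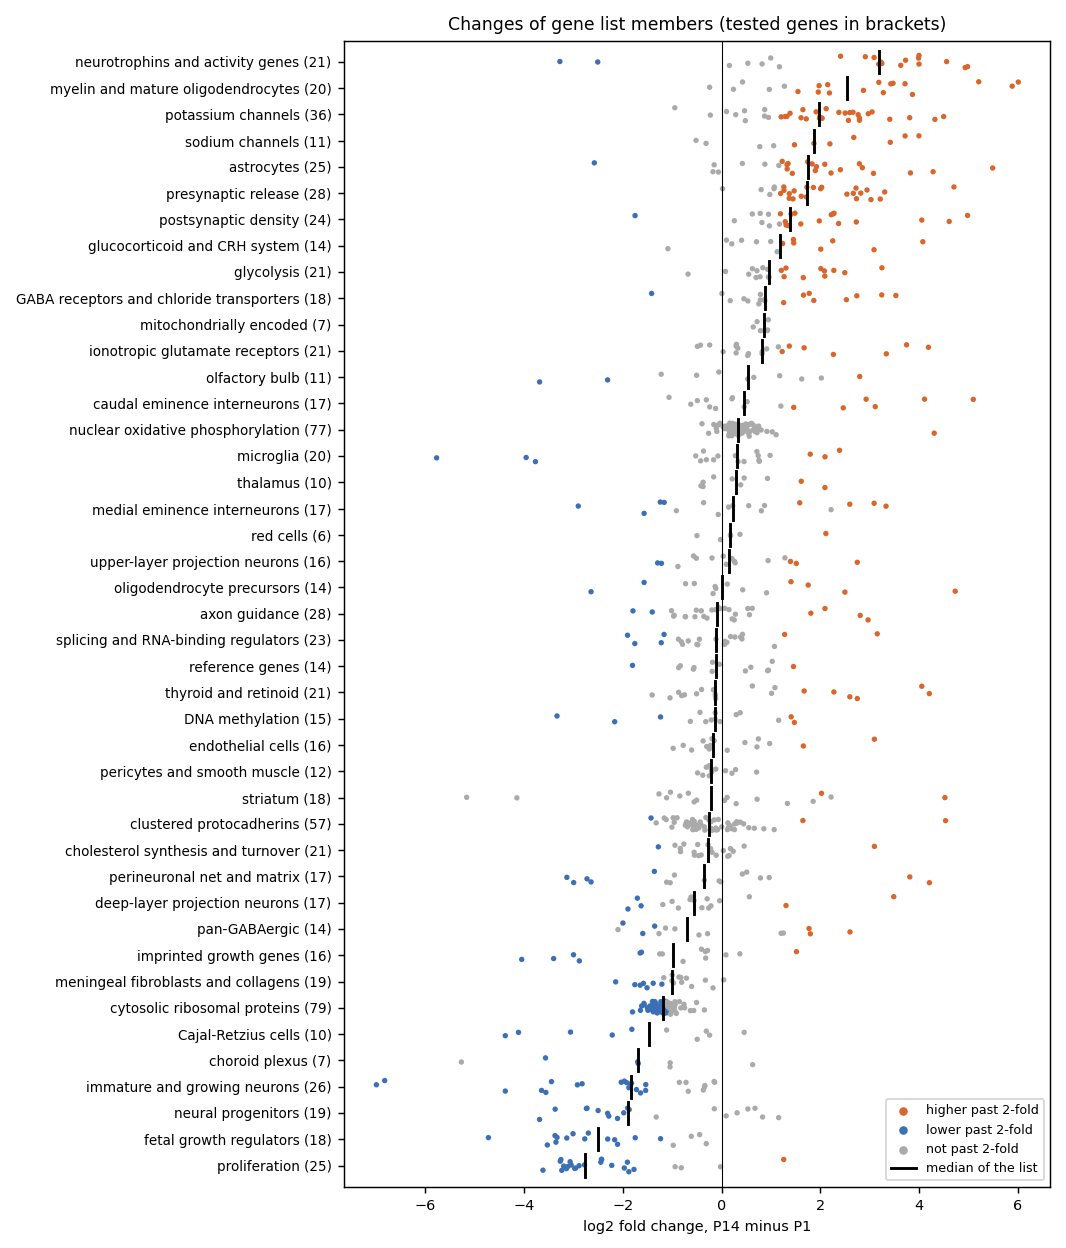
Log2 fold change from P1 to P14 of every tested member of the 43 gene lists, with lists ordered by their median (black bar) and members past 2-fold coloured. Activity, myelin, channel and synapse genes lie on the right, and proliferation, fetal growth, progenitor and young neuron genes on the left.

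Genes shared by GABAergic interneurons moved in both directions. Gad2, a glutamate decarboxylase that makes GABA, was measured at 37, 24.6, 49.3 and 20.2 CPM at P1 and 201, 203, 200.2 and 191 CPM at P14. Its log2 fold change of 2.6 ± 0.276 (SE), adjusted p = 7.22e-05, was past 2-fold. Gad1, the other decarboxylase, was measured at 69.9, 65.2, 140.4 and 48.8 CPM at P1 and 188, 192, 215 and 177 CPM at P14, and Slc32a1, the vesicular GABA transporter, at 45.4, 40.6, 76.4 and 32.2 CPM at P1 and 115, 102, 118 and 114 CPM at P14. Both passed without reaching the 2-fold call, with log2 fold changes of 1.25 and 1.21 and adjusted p of 0.0108 and 0.00326. P1 replicate 3 was the highest P1 library for all 3 genes. It was also the highest for Isl1 and Six3, factors of the developing striatum named after their values were seen, at 5.42, 0.529, 9.75 and 0.22 CPM and 8.89, 1.48, 11.2 and 0.769 CPM in the P1 libraries. The whole striatal list did not follow: it summed to 811, 612, 602 and 688 CPM in the P1 libraries, lowest in replicate 3. Without P1 replicate 3 the log2 fold changes of Gad1, Gad2 and Slc32a1 were 1.65, 2.86 and 1.5. The part of neighbouring tissue in these values was not tested. Abat (GABA transaminase, which breaks GABA down) rose from 99.3 ± 12 to 345 ± 8.58 CPM. Dlx1, a homeobox factor of developing interneurons named after its values were seen, fell from 178 ± 41.6 to 59.5 ± 14 CPM. Over the 14 tested genes of the list 5 were higher and 7 lower (36.0% and 37.8% of all genes), with a median of -0.7.

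The next list holds genes of interneurons born in the medial ganglionic eminence, which become parvalbumin and somatostatin cells. Lhx6, the factor that defines them, was measured at 102, 107, 115 and 113 CPM at P1 and 39.3, 34.5, 34 and 39.2 CPM at P14, with a log2 fold change of -1.57 ± 0.0692 (SE), adjusted p = 7.16e-10. Sst (somatostatin) was measured at 95.8, 111, 88 and 74.7 CPM at P1 and 291, 256, 279.7 and 280.4 CPM at P14, with a log2 fold change of 1.58 ± 0.103 (SE), adjusted p = 4.1e-08. Cort (cortistatin) rose from 1.43 ± 0.301 to 12.3 ± 1.61 CPM, Syt2, a synaptotagmin of fast-spiking terminals, from 1.31 ± 0.411 to 13.3 ± 0.576 CPM, and Kcnc2, a potassium channel of fast-spiking cells, from 9.16 ± 0.592 to 55.4 ± 6.22 CPM. Npy (neuropeptide Y) changed less, from 41.2 ± 9.37 to 60.4 ± 3.86 CPM, and no longer passed with total reads as the scale (log2 fold change 0.34). Of 17 tested genes 8 were higher and 6 lower, near the 36.0% and 37.8% of all genes; the median of 0.23 was near 0 with total reads (-0.00205). For cells of the caudal eminence 8 of 17 were higher and 5 lower, beside the same background (median 0.46). Vip, vasoactive intestinal peptide, was measured at 1.12, 3.21, 1.97 and 2.03 CPM at P1 and 30.6, 38.8, 29.8 and 45.4 CPM at P14, with a log2 fold change of 4.11 ± 0.292 (SE), adjusted p = 2.42e-06. Cck, the peptide cholecystokinin that projection neurons also make, rose from 61.2 ± 2.77 to 529.8 ± 39.2 CPM, and Crh from 4.33 ± 0.364 to 12 ± 1.06 CPM. Htr3a, the ionotropic serotonin receptor subunit, overlapped between the ages and did not pass (3.2 ± 1.17 CPM at P1 and 3.67 ± 1.49 CPM at P14), and Nr2f2, the factor COUP-TFII, fell from 24.9 ± 2.16 to 11.9 ± 1.62 CPM.

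The machinery of transmitter release rose almost without exception. Of 28 tested genes 27 were higher at P14, 23 past 2-fold (11.5% of all genes), and 0 lower, with a median of 1.72. Syp, the vesicle protein synaptophysin, was measured at 268, 325, 309 and 272 CPM at P1 and 2144, 2071, 2059 and 2007 CPM at P14. Dnm1 (dynamin 1, which pinches off recycled vesicles) rose from 231 ± 18.7 to 1879 ± 83 CPM, Syn2 (a synapsin) from 96.6 ± 11.3 to 896 ± 36.5 CPM and Syngr1 (synaptogyrin 1) from 183 ± 15.9 to 1209 ± 46.4 CPM. Among the calcium sensors Syt1 rose from 351 ± 29.7 to 2334 ± 101 CPM. Syt4, a synaptotagmin that is not in this list, was measured at 439.9, 391, 312 and 561 CPM at P1 and 281, 318, 263 and 313 CPM at P14, and it fell by less than 2-fold with groups that overlapped (log2 fold change -0.54, adjusted p = 0.0106). The member that did not pass was Slc17a6, the vesicular glutamate transporter VGLUT2 of subcortical and young neurons, at 26 ± 5.11 CPM at P1 and 26.3 ± 2.92 CPM at P14. Slc17a7, the VGLUT1 of mature cortical neurons, was measured at 106, 144, 89.7 and 119 CPM at P1 and 3050, 3113, 3006 and 2776 CPM at P14, and the log2 ratio of its reads to those of Slc17a6 was 2.14 ± 0.48 at P1 and 6.83 ± 0.211 at P14.

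On the receiving side 22 of 24 genes of the postsynaptic density were higher and 1 lower (median 1.38). Camk2a, the alpha subunit of the calcium-calmodulin kinase of plasticity, was measured at 89.6, 126, 153 and 114 CPM at P1 and 2788, 3141, 2947 and 2886 CPM at P14, with a log2 fold change of 4.61 ± 0.152 (SE), adjusted p = 1.5e-10. Camk2b, the beta subunit, was present earlier and rose less, from 554 ± 73.2 to 1083 ± 77.6 CPM. The scaffold genes Shank3, Dlgap3 and Dlgap2 rose from 109.8 ± 11.2 to 512 ± 19.9 CPM, from 169 ± 10.8 to 819 ± 48.8 CPM and from 13.6 ± 1.5 to 90.3 ± 2.44 CPM, and Dlg1 (SAP97) from 23.4 ± 1.59 to 121 ± 12.1 CPM. Dlg4 (PSD-95) rose from 495 ± 28.6 to 1504 ± 85.2 CPM. The gene that fell was Homer3, named after its value was seen, from 28.6 ± 2.65 to 8.54 ± 1.1 CPM.

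NMDA receptor subunits changed their proportions. Grin2a, the GluN2A subunit of mature synapses, was measured at 5.18, 8.01, 5.57 and 6.95 CPM at P1 and 118, 131, 119.5 and 101 CPM at P14. No P14 library was near the P1 range, with a log2 fold change of 4.19 ± 0.141 (SE), adjusted p = 4.97e-10. Grin2b, the GluN2B subunit of young synapses, was measured at 231, 282, 247 and 353 CPM at P1 and 399, 374, 321 and 303 CPM at P14, and these ranges overlapped. Its log2 fold change of 0.33 had an adjusted p of 0.0458 and lost the call in 9 alternatives, at 0.12 to 0.34: with total reads or upper-quartile scaling, with no filter on low counts, with the replicate block, and without P1 replicate 1, 2 or 3 or P14 replicate 1 or 2. Within each library the log2 ratio of Grin2a to Grin2b reads was -5.44 ± 0.219 at P1 and -1.57 ± 0.141 at P14. Grin1, the obligatory subunit, rose from 164 ± 16.3 to 790.3 ± 51.1 CPM. Among AMPA receptor genes Gria3 rose from 70.3 ± 3.86 to 224 ± 16.3 CPM, Gria4 from 51.1 ± 5.87 to 90.4 ± 8.64 CPM and Gria1 from 253 ± 29 to 310.3 ± 15.3 CPM, and Gria1 no longer passed with total reads as the scale (log2 fold change 0.08). Cacng3, an auxiliary subunit that carries AMPA receptors to synapses, rose from 26.1 ± 2.25 to 263 ± 11 CPM. Over all 21 genes of the list 15 were higher and 2 lower.

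GABA receptor genes and the chloride transporters gave a similar picture, with 16 of 18 higher and 1 lower (median 0.87). Gabra5, an alpha subunit of early and extrasynaptic receptors, was measured at 109, 123, 115 and 113 CPM at P1 and 136, 126, 118 and 139 CPM at P14. The groups overlapped, and its log2 fold change of 0.18 (adjusted p = 0.0252) turned to -0.04 with total reads as the scale and missed the threshold with upper-quartile scaling and without P1 replicate 1 or 3 or P14 replicate 1 or 4 (0.08 to 0.17). Gabrd, the delta subunit of tonic receptors, was measured at 3.65, 3.98, 4.61 and 3.4 CPM at P1 and 37.8, 36.9, 37.8 and 35.7 CPM at P14, with a log2 fold change of 3.24 ± 0.0908 (SE), adjusted p = 2.24e-11. Gabra4, another subunit of tonic receptors, rose from 19.3 ± 1.0 to 129 ± 8.84 CPM, and Gabbr2, of the metabotropic receptor, from 213 ± 29.3 to 777 ± 31.4 CPM. Slc12a5 (KCC2, the chloride extruder that makes GABA inhibitory) was measured at 111, 136, 173 and 126 CPM at P1 and 801, 828, 771 and 747 CPM at P14, with a log2 fold change of 2.53 ± 0.119 (SE), adjusted p = 2.6e-09. Slc12a2 (NKCC1, the importer) overlapped between the ages and did not pass, at 32.9 ± 2.98 CPM at P1 and 33 ± 3.34 CPM at P14. The log2 ratio of Slc12a5 to Slc12a2 reads was 2.04 ± 0.213 at P1 and 4.58 ± 0.19 at P14. Glra2, the fetal glycine receptor subunit and the only member that was lower, fell from 77.2 ± 6.05 to 28.8 ± 2.94 CPM; it was named after its value was seen.

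Sodium and potassium channel genes mostly rose as well. Of 11 sodium channel genes 9 were higher and 2 lower (median 1.87). Of 36 potassium channel genes 33 were higher, 27 past 2-fold (11.5% of all genes), and 2 lower (median 1.98). The beta subunit gene Scn2b rose from 10.4 ± 1.47 to 166 ± 13.7 CPM. Scn8a, the channel of mature nodes of Ranvier, was measured at 61.8, 76, 71.8 and 79.2 CPM at P1 and 329.7, 359, 327 and 305 CPM at P14, with no overlap. Scn1a, typical of inhibitory neurons, rose from 13.2 ± 1.3 to 84.3 ± 9.59 CPM, and the fetal Scn3a fell from 71 ± 2.98 to 49.6 ± 3.31 CPM. Among potassium channels Kcnj4, an inward rectifier of forebrain neurons, rose from 6.91 ± 1.11 to 138 ± 5.89 CPM, Kcnc4 from 20.1 ± 2.67 to 166 ± 5.4 CPM and the beta subunit gene Kcnab2 from 38.5 ± 1.33 to 262 ± 13.9 CPM.

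Ratios of paired genes within a library do not depend on how libraries are scaled. All 21 pairs compared differed between the ages by an exact two-sided permutation test at p = 0.0286, also after adjustment over the pairs. That is the smallest p that 4 libraries against 4 can give. The pairs were chosen with earlier results of these data known, and 68.4% of all single genes also had no overlap between the ages. The share for pairs of any genes was not computed, so the count is not a result about these pairs. In 19 pairs the first gene, in most cases the one known for mature tissue, gained on the second. The largest gains on the log2 scale were 5.0 for Nefh over Ina, 4.7 for Slc17a7 over Slc17a6, 3.87 for Grin2a over Grin2b, 3.66 for Tubb2a over Tubb2b and 3.66 for Camk2a over Camk2b. The DNA methyltransferase pair Dnmt3a over Dnmt3b gained 3.6. In 2 pairs the second gene gained: Gria1 over Gria4 changed by -0.52 and Gja1 over Gjb6 (astrocyte connexins) by -1.02. The ratios are of reads, not per length, so they compare ages and not the 2 genes.

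**Figure D3:**
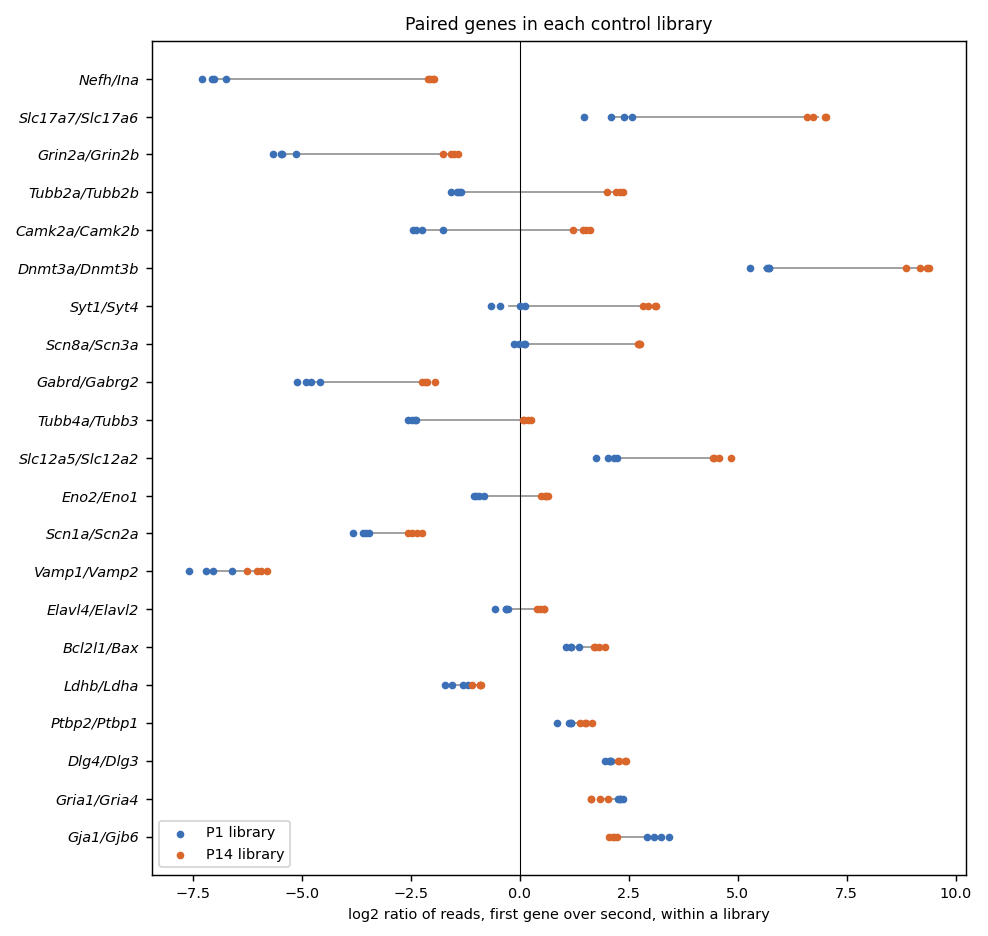
Log2 ratio of reads of 2 paired genes within each control library (x axis), with P1 libraries in blue, P14 libraries in orange and a grey line between the means; pairs are ordered by their change. In every row the 4 points of one age lie apart from the 4 of the other, from Nefh/Ina at the top (change 5.0) to Gja1/Gjb6 at the bottom (-1.02).

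**Figure D4:**
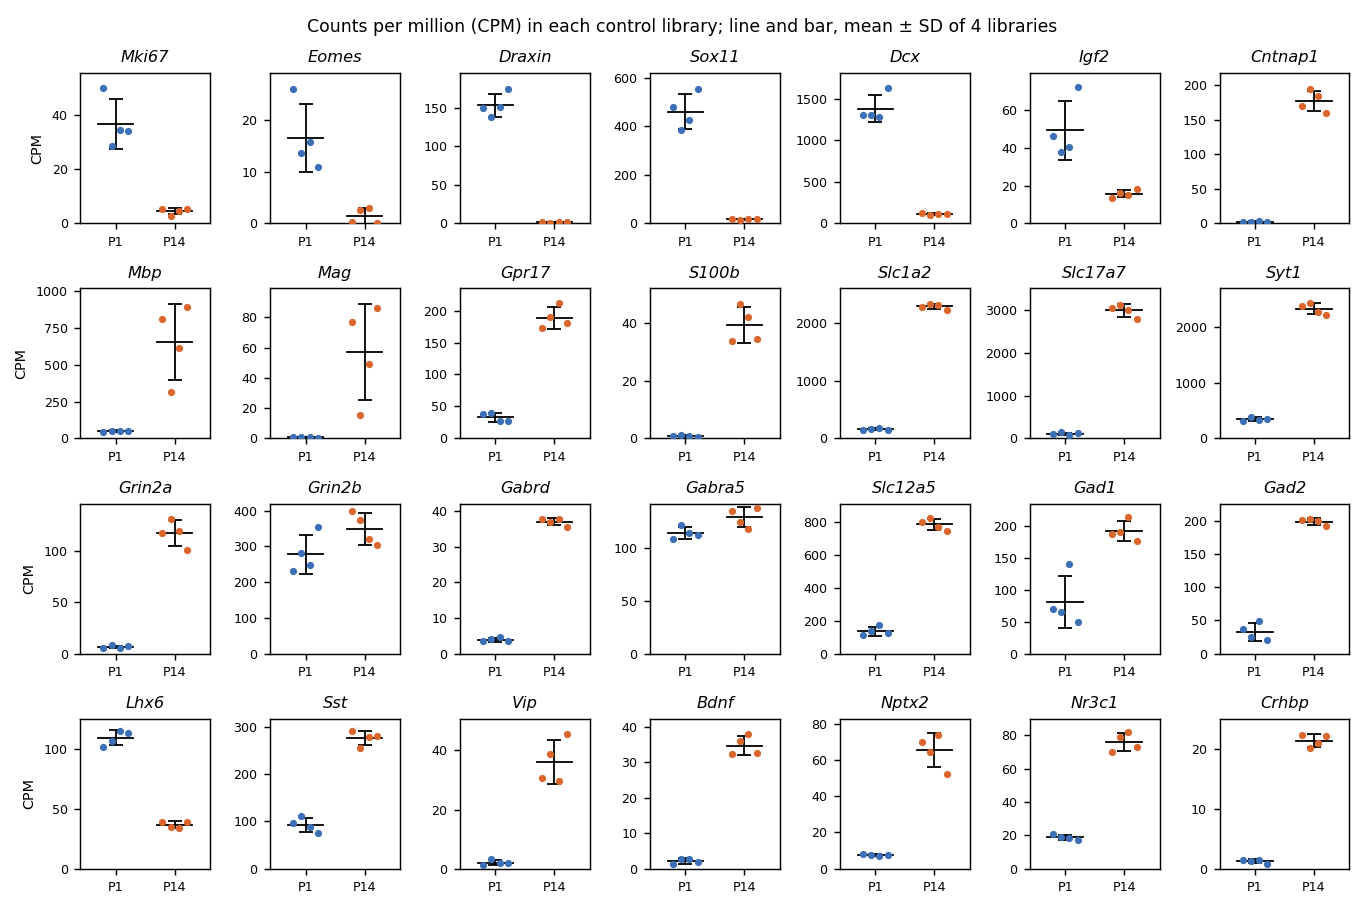
CPM of 28 genes in each control library at P1 (blue) and P14 (orange), with the mean and SD of 4 libraries in black and every axis starting at 0. Most genes have 2 separate groups of points, Grin2b and Gabra5 overlap between the ages, and the P14 points of Mbp and Mag spread from low values in replicate 2.

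Most myelin genes rose, though unevenly among the P14 libraries. Of 20 tested genes 16 were higher, 15 past 2-fold (11.5% of all genes), and 0 lower, with a median of 2.53. Mag, the myelin-associated glycoprotein, was measured at 0.837, 1.09, 1.28 and 0.631 CPM at P1 and 76.9, 15.7, 49.5 and 85.9 CPM at P14, with a log2 fold change of 5.88 ± 0.698 (SE), adjusted p = 0.000239. Mbp, myelin basic protein, was measured at 41.4, 53.4, 52.3 and 52.5 CPM at P1 and 806, 312, 614 and 888 CPM at P14, with a log2 fold change of 3.71 ± 0.349 (SE), adjusted p = 4.34e-05. P14 replicate 2 was the lowest P14 library for both, and the list summed to 2066, 1038, 1715 and 2244 CPM in the P14 libraries against 252 to 284 at P1. That library was also the lowest of the P14 libraries for Gjc3, a connexin of oligodendrocytes, at 0.647, 0.657, 0.719 and 0.494 CPM at P1 and 9.05, 7.07, 10.3 and 10.8 CPM at P14, and for Myrf, the transcription factor that switches on myelin genes, at 1.68, 1.55, 1.89 and 1.32 CPM at P1 and 23, 11.7, 16.5 and 20.2 CPM at P14. Bcas1, which marks oligodendrocytes before they myelinate, was measured at 7.82, 7.54, 6.29 and 5.79 CPM at P1 and 68.1, 66.2, 85 and 78.7 CPM at P14, with replicates 1 and 2 the lowest of the P14 libraries. Enpp2, which encodes autotaxin, was measured at 46.9, 41.6, 32.9 and 40.4 CPM at P1 and 143, 164, 156 and 166 CPM at P14, with replicate 1 the lowest.

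Of 14 tested markers of oligodendrocyte precursors 6 were higher and 4 lower (36.0% and 37.8% of all genes), with a median of 0.00, and the defining receptor gene Pdgfra (93.5 ± 6.75 CPM at P1 and 82.8 ± 7.8 CPM at P14) did not pass (adjusted p = 0.0565). It passed as lower in 8 alternatives, among them the replicate block and the fits without P1 replicate 2 or 3 and P14 replicate 1 or 4, at -0.18 to -0.39. Gpr17, the receptor of cells committed to differentiate, was measured at 37.9, 40.5, 27.6 and 27.4 CPM at P1 and 172, 190.5, 212 and 181 CPM at P14, with a log2 fold change of 2.5 ± 0.137 (SE), adjusted p = 3.25e-08. Neu4, a sialidase, rose from 0.448 ± 0.242 to 12.7 ± 1.34 CPM. Vcan (versican, a matrix proteoglycan of precursors) fell from 162 ± 14.1 to 25.9 ± 1.55 CPM, and Cacng4 from 334 ± 37.1 to 113 ± 15.2 CPM; both genes are also expressed by young neurons.

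Astrocyte genes rose in 19 of 25 cases and fell in 1 (median 1.75). Slc1a2, the glutamate transporter GLT-1, was measured at 144, 171, 179.7 and 155 CPM at P1 and 2282, 2345, 2328 and 2240 CPM at P14. The P14 libraries lay within a narrow range far above P1, with a log2 fold change of 3.83 ± 0.087 (SE), adjusted p = 5.77e-12. S100b, a calcium-binding protein, was measured at 0.99, 1.04, 0.772 and 0.577 CPM at P1 and 33.8, 46.4, 42.1 and 34.3 CPM at P14, and Ntsr2, a neurotensin receptor of astrocytes, at 3.35, 4.33, 3.73 and 3.35 CPM at P1 and 63, 75.4, 82.7 and 68.2 CPM at P14. Kcnj10 (the potassium channel Kir4.1) rose from 37.5 ± 3.94 to 259 ± 25.3 CPM, Clu (clusterin) from 61 ± 7.08 to 441 ± 22.5 CPM and Aqp4, the water channel of the endfeet, from 36.4 ± 8.6 to 138 ± 7.99 CPM. The member that fell was Thbs1 (thrombospondin 1, a synapse-promoting secreted protein), from 28.5 ± 1.12 to 4.68 ± 0.769 CPM; it was named after its value was seen.

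Of 20 microglial genes 10 were higher and 6 lower, beside 36.0% and 37.8% of all genes (median 0.31). Spp1 (osteopontin), Gpnmb and Itgax (CD11c), which mark the phagocytic microglia of the early postnatal white matter, fell. Spp1 was measured at 65.6, 40.6, 80.9 and 43.5 CPM at P1 and 0.604, 1.26, 1.54 and 1.21 CPM at P14, with a log2 fold change of -5.77 ± 0.369 (SE), adjusted p = 2.88e-06. Gpnmb fell from 9.98 ± 3.83 to 0.669 ± 0.222 CPM and Itgax from 3.34 ± 1.15 to 0.248 ± 0.0414 CPM. The markers of resident microglia Tmem119 and P2ry12 rose, from 5.58 ± 0.846 to 29.4 ± 1.08 CPM and from 16.6 ± 3.54 to 71.3 ± 6.96 CPM, and Cx3cr1, the fractalkine receptor, rose from 35 ± 8.37 to 59.3 ± 1.38 CPM. P1 replicate 4 had the lowest sum of the list, 434, 466, 448 and 304 CPM over the P1 libraries.

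Of 16 endothelial genes 6 were higher and 6 lower, near the 36.0% and 37.8% of all genes (median -0.17). The blood-brain barrier transporters Slco1a4 and Slc2a1 rose from 1.66 ± 0.443 to 14.3 ± 0.972 CPM and from 48.8 ± 2.99 to 80.2 ± 3.74 CPM, and Flt1, a receptor for vascular growth factor, from 26.1 ± 1.64 to 43.7 ± 3.31 CPM. The junction genes Cldn5 and Cdh5 fell from 102 ± 9.93 to 66.7 ± 6.72 CPM and from 44.7 ± 7.01 to 22.7 ± 0.739 CPM. Mural genes gave 1 higher and 2 lower of 12: Rgs5 of pericytes rose from 74.6 ± 7.58 to 122 ± 5.54 CPM.

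Meningeal and collagen genes mostly fell. Of 19 tested 17 were lower and 0 higher (median -1.0), and the list summed to 1599, 1491, 1399 and 1777 CPM at P1 and 800.2, 712, 773 and 829 CPM at P14. Col3a1, a fibrillar collagen of fibroblasts, was measured at 166, 175, 165 and 168 CPM at P1 and 35.5, 33.1, 40.2 and 43.7 CPM at P14, with a log2 fold change of -2.14 ± 0.0822 (SE), adjusted p = 2.22e-10. Col1a2 fell from 188 ± 15.8 to 65.8 ± 6.39 CPM and Lum (lumican) from 11.4 ± 0.462 to 3.35 ± 0.28 CPM. How much meninges each dissection held was not tested.

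Blood and neighbouring tissue were read from their own lists. Of 6 red cell genes 1 changed, Car2, a carbonic anhydrase that oligodendrocytes also express; the adult globin gene Hbb-bs did not pass, at 83.9, 120.2, 97.9 and 174 CPM at P1 and 106, 105, 200.3 and 132 CPM at P14, with P1 replicate 4 and P14 replicate 3 highest. Choroid plexus genes were low throughout, with sums of 15, 14.2, 29.6 and 18.8 CPM at P1 and 8.6, 6.28, 5.95 and 7.27 at P14, and 5 of 7 were lower. P1 replicate 3 was the highest for Otx2, at 0.742, 0.657, 3.73 and 0.522 CPM, and for Ttr, the choroid transthyretin, at 0.495, 0.529, 10.9 and 4.17 CPM. Striatal genes summed to 811, 612, 602 and 688 CPM at P1 and 899, 826, 816 and 891 CPM at P14, 6 of 18 were higher and 6 lower (36.0% and 37.8% of all genes), and their median of -0.22 turned to 0.26 without P1 replicate 1. Cortical neurons express many striatal genes too, among them Pdyn (prodynorphin), which rose from 3.67 ± 1.4 to 84.7 ± 10.4 CPM, and Penk (proenkephalin), from 8.12 ± 2.04 to 33.1 ± 3.68 CPM. Olfactory bulb genes gave 2 higher and 3 lower of 11, and thalamic genes 3 and 2 of 10; Omp, the marker of olfactory sensory neurons, was at most 0.302 CPM in any library.

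**Figure D5:**
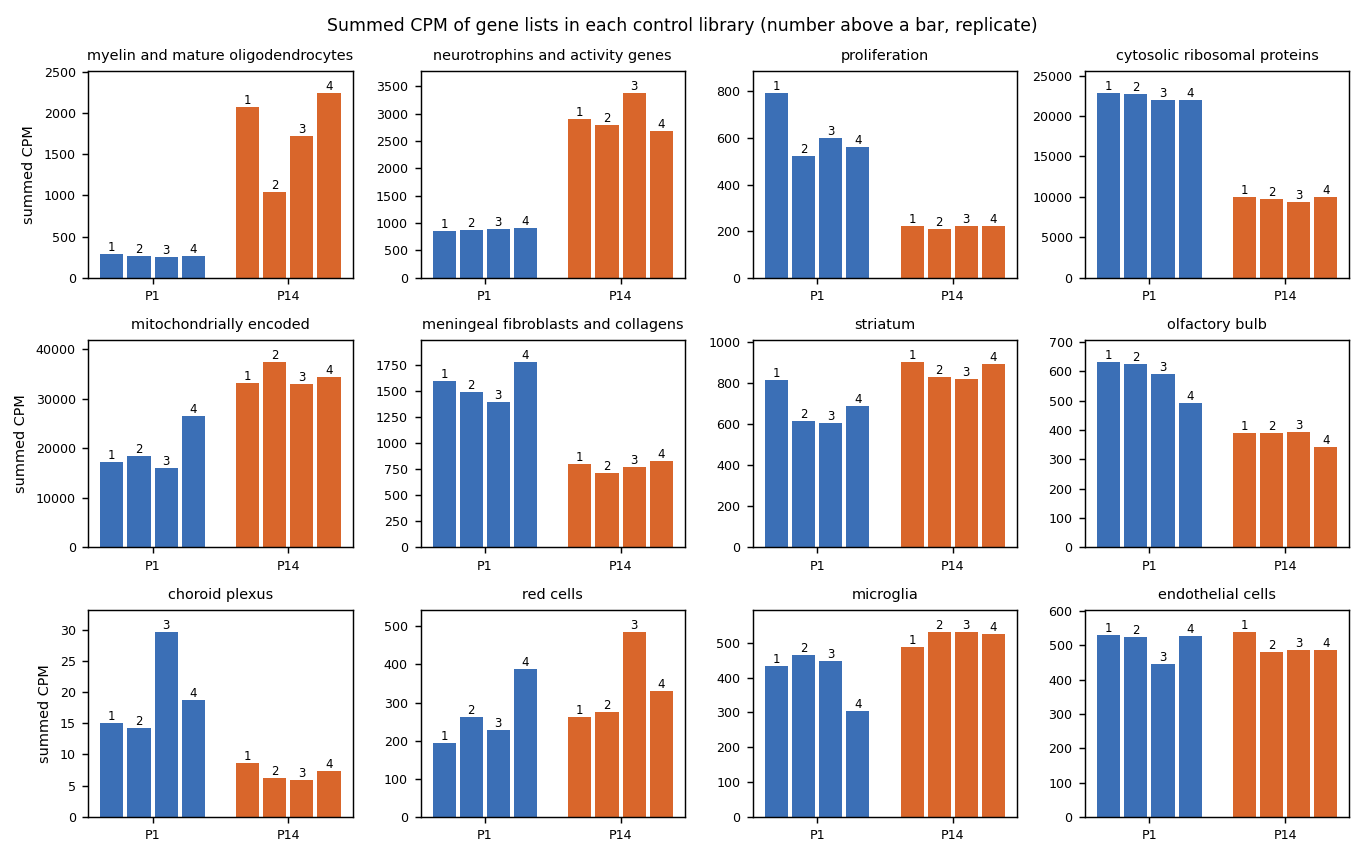
Summed CPM of 12 gene lists in each control library at P1 (blue) and P14 (orange), with the replicate number above each bar and axes starting at 0. P14 replicate 2 is the lowest P14 library for myelin, P14 replicate 3 the highest for activity genes and red cells, P1 replicate 3 the highest for the choroid plexus and P1 replicate 4 the highest P1 library for mitochondrial and meningeal genes.

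Genes induced by neuronal activity, with the neurotrophins, had the highest median of all 43 lists, 3.18, with 17 of 21 higher and 2 lower. Bdnf, brain-derived neurotrophic factor, was measured at 1.27, 2.77, 2.74 and 1.89 CPM at P1 and 32.3, 36, 37.9 and 32.6 CPM at P14, with a log2 fold change of 4.0 ± 0.198 (SE), adjusted p = 1.43e-08. Egr3, an immediate early factor, was measured at 11.4, 14.8, 10.9 and 8.62 CPM at P1 and 184, 172, 209.5 and 170 CPM at P14, and Nptx2, a secreted pentraxin that gathers AMPA receptors, at 8.3, 7.72, 7.11 and 7.41 CPM at P1 and 70.1, 64.5, 73.9 and 52.4 CPM at P14. Vgf, a neuropeptide precursor, rose from 102 ± 19.4 to 543 ± 40.4 CPM. P14 replicate 3, the shallowest library, was the highest for the fastest genes: Arc was at 78, 63.9, 181 and 57.6 CPM, Fos at 26.8, 23.8, 54.2 and 25.3 CPM and Npas4 at 16.9, 15, 40.9 and 19.4 CPM in the P14 libraries, against no more than 4.05, 2.63 and 2.49 CPM at P1. These 3 genes were named after their values were seen, as were the 2 members that fell. These were Ntf3 (neurotrophin 3), from 14.3 ± 3.75 to 1.35 ± 0.716 CPM, and Ngfr (the p75 neurotrophin receptor), from 8.82 ± 3.6 to 1.6 ± 0.364 CPM.

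Among genes of glucocorticoid and corticotropin-releasing hormone signalling 11 of 14 were higher and 1 lower (median 1.18). Nr3c1, the glucocorticoid receptor, was measured at 20.9, 19.2, 18.2 and 17.1 CPM at P1 and 70.2, 79.1, 82 and 73.1 CPM at P14, with a log2 fold change of 2.01 ± 0.0765 (SE), adjusted p = 2.09e-10. Nr3c2, the mineralocorticoid receptor, rose from 17.4 ± 4.81 to 28.2 ± 2.19 CPM. Hsd11b1, the enzyme that regenerates active corticosteroid, rose from 2.08 ± 0.39 to 17.8 ± 2.23 CPM. Crhbp (the binding protein of the hormone) was measured at 1.48, 1.3, 1.41 and 0.824 CPM at P1 and 22.4, 20.1, 21 and 22.1 CPM at P14, and Crhr1, its receptor, rose from 8.26 ± 0.739 to 39.3 ± 2.71 CPM. Fkbp5, a chaperone that is itself induced by glucocorticoids and restrains the receptor, was the member that fell, at 65.2, 60.1, 63.6 and 71.1 CPM at P1 and 33.3, 27.9, 32.8 and 28.6 CPM at P14, with a log2 fold change of -1.09 ± 0.0766 (SE), adjusted p = 4.88e-08.

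The thyroid and retinoid list had 9 higher and 3 lower genes of 21 (36.0% and 37.8% of all genes), and its median of -0.12 was 0.45 without P1 replicate 1. Klf9, a Krüppel-like factor induced by thyroid hormone and glucocorticoids, was measured at 12.2, 11.2, 11.7 and 9.91 CPM at P1 and 228, 204, 209.7 and 192 CPM at P14, with a log2 fold change of 4.21 ± 0.083 (SE), adjusted p = 3.74e-12. Thrb, a thyroid hormone receptor, rose from 11.1 ± 1.5 to 67.2 ± 4.83 CPM, Dio2, the deiodinase that makes the active hormone, from 20.6 ± 3.01 to 100.2 ± 11 CPM and Rbp4, a retinol carrier, from 2.35 ± 0.377 to 15.9 ± 1.66 CPM.

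In the extracellular matrix 5 of 17 genes were higher and 9 lower (36.0% and 37.8% of all genes). Has3, a hyaluronan synthase, was measured at 29.1, 33.9, 29.6 and 39.5 CPM at P1 and 3.83, 3.91, 3.78 and 3.5 CPM at P14, and the matrix protease gene Mmp9 fell from 17.5 ± 3.0 to 2.17 ± 0.236 CPM. The link protein genes Hapln1 and Hapln4, which stabilise perineuronal nets and were named after their values were seen, rose from 4.81 ± 1.99 to 67.4 ± 10.2 CPM and from 1.17 ± 0.544 to 21 ± 3.65 CPM.

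Of 23 splicing and RNA-binding genes 8 were higher and 11 lower, near the 36.0% and 37.8% of all genes. Mbnl2, which promotes adult splice forms, was measured at 18.6, 17.1, 17 and 16.6 CPM at P1 and 141, 170.1, 154 and 150.3 CPM at P14, with a log2 fold change of 3.15 ± 0.0718 (SE), adjusted p = 5.77e-12. Rbfox3, the neuronal marker NeuN, rose from 147 ± 14.5 to 357 ± 25 CPM, Elavl3 fell from 882 ± 81 to 393 ± 10.1 CPM and Khdrbs2 from 23.2 ± 1.59 to 6.1 ± 0.828 CPM, and the splicing repressors Ptbp1 and Ptbp2 fell from 75.8 ± 9.0 to 32.5 ± 2.43 CPM and from 159.7 ± 5.97 to 92.3 ± 1.61 CPM. Among the enzymes of DNA methylation the maintenance factors Dnmt1 and Uhrf1 fell, from 172 ± 17.4 to 72.9 ± 1.54 CPM and from 15.6 ± 4.94 to 1.55 ± 0.158 CPM. Dnmt3a, which lays down the methylation of maturing neurons, was measured at 133, 139, 137 and 138 CPM at P1 and 401, 366, 347 and 340 CPM at P14, and Dnmt3b, the embryonic form, at 3.43, 2.63, 2.69 and 2.61 CPM at P1 and 0.86, 0.534, 0.56 and 0.507 CPM at P14; they moved in opposite directions without overlap. The clustered protocadherins, adhesion proteins that give neurons their identity, gave 8 higher and 27 lower genes of 57; their isoforms share 3' exons, so how reads were assigned between them is uncertain. Pcdhgc5 stood apart, at 6.83, 4.84, 6.45 and 6.15 CPM at P1 and 124, 152, 155 and 131 CPM at P14, with a log2 fold change of 4.54 ± 0.119 (SE), adjusted p = 3.04e-11.

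Cytosolic ribosomal protein genes were lower in 78 of 79 cases, 47 past 2-fold (8.59% of all genes), with a median of -1.18. They have many processed copies in the genome that can share reads. Rpl7 fell from 460.4 ± 27.1 to 155 ± 2.99 CPM. The list summed to 22870, 22750, 21960 and 21920 CPM at P1 and 9982, 9788, 9303 and 9986 CPM at P14. Nuclear genes of oxidative phosphorylation mostly rose, in small steps, 63 of 77 higher with a median of 0.33, and Cox6a2, a cytochrome oxidase subunit restricted to few tissues, rose from 0.143 ± 0.072 to 2.98 ± 0.638 CPM. All 7 tested genes of the mitochondrial genome were higher: mt-Co1 was measured at 5659, 6058, 5239 and 8740 CPM at P1 and 11630, 13110, 12070 and 12210 CPM at P14, and P1 replicate 4 was the highest P1 library. Glycolysis genes were higher in 19 of 21 entries (Aldoa stands under 2 gene IDs, both counted, as do Dlg2 of the postsynaptic density and Pcdha11 of the protocadherins), among them Pfkp, a phosphofructokinase, from 36.6 ± 1.85 to 348 ± 19.1 CPM, the neuronal enolase gene Eno2 from 133 ± 9.05 to 748 ± 26.1 CPM and the glucose transporter gene Slc2a3 from 62.2 ± 5.73 to 263 ± 9.24 CPM. Cholesterol genes were lower in 12 and higher in 3 of 21 cases: the synthesis enzyme gene Fdps fell from 102 ± 13.9 to 41.9 ± 6.19 CPM, while Cyp46a1, the neuronal hydroxylase through which cholesterol leaves the brain, was measured at 22.6, 24.4, 22.5 and 22.8 CPM at P1 and 203, 205, 188 and 192 CPM at P14.

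Of 14 genes often used as references 6 were higher, 5 lower and 3 did not pass, shares near the 36.0% higher and 37.8% lower of all genes. Actb (beta actin) fell from 1929 ± 126 to 1081 ± 117 CPM and Rplp0 from 936 ± 52.5 to 268 ± 16.1 CPM, while Gapdh rose from 729 ± 69.9 to 1406 ± 77.3 CPM and Hprt from 35.1 ± 2.61 to 96.3 ± 5.5 CPM. Ppia (cyclophilin A) overlapped and did not pass, at 630.5 ± 38.9 CPM at P1 and 612 ± 19.4 CPM at P14, though it passed as lower with total reads as the scale (log2 fold change -0.26).

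Host genes of miRNAs were looked at after the values of all genes were seen. Of 7 tested genes named as miRNA hosts, 2 passed the 2-fold call, beside 20.1% of all genes: Mir22hg (chromosome 11, 75461539 to 75466676, plus strand) and Mir17hg (chromosome 14, 115042879 to 115046727, plus strand). The log2 fold changes of the other 5 lay between -0.52 and 0.46. These are values of the long host transcripts, and mature miRNAs were not measured. Mir22hg was measured at 2.93, 2.83, 3.2 and 1.65 CPM at P1 and 16.3, 18.2, 15.8 and 16.8 CPM at P14, all P14 libraries above all P1 libraries, with a log2 fold change of 2.65 ± 0.161 (SE), adjusted p = 1.22e-08. Mir17hg, the host of an oncogenic cluster that drives progenitor proliferation, was measured at 0.761, 0.475, 0.639 and 0.631 CPM at P1 and 0.151, 0.138, 0.070 and 0.0966 CPM at P14, with a log2 fold change of -2.29 ± 0.304 (SE), adjusted p = 1.89e-05. The mature sequences that lie inside the hosts by coordinates (RefSeq, GRCm38.p6) are shown for the arms that share seeds or name a seed family, with the seed (bases 2 to 8) in capitals.
mmu-miR-22-3p: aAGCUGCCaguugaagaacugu
mmu-miR-17-5p: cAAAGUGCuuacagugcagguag
mmu-miR-20a-5p: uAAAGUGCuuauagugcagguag
mmu-miR-18a-5p: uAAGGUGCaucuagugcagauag
mmu-miR-19a-3p: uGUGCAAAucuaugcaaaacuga
mmu-miR-19b-3p: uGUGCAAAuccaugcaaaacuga
mmu-miR-92a-3p: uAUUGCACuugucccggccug
Within Mir17hg the seed AAAGUGC is shared by mmu-miR-17-5p and mmu-miR-20a-5p, and GUGCAAA by mmu-miR-19a-3p and mmu-miR-19b-3p, while mmu-miR-18a-5p and mmu-miR-92a-3p have seeds of their own. 

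Long genes were more often among the rises. The median gene length was 33.3 kb for 1718 protein-coding genes past 2-fold upwards, 21.3 kb for 1196 downwards and 25.4 kb for all 14602 tested, while their median exonic lengths were 4.62, 4.33 and 4.52 kb. In the longest of 10 equal groups by length (143 to 2960 kb) 20.4% of genes were past 2-fold upwards and 6.78% downwards, with a median log2 change of 0.22. In the shortest group (up to 4.76 kb) the shares were 10.1% and 10.7%. Genes are not replicates, and these values describe the lists with no test. Of 1224 long noncoding RNA genes tested, 12% were past 2-fold upwards and 10.9% downwards, beside 11.8% and 8.19% of protein-coding genes.

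The change with age was compared with that in the 8 libraries of prenatally stressed mice, which share no library with the controls. The stressed fit called 5645 of 16616 genes higher (34.0%) and 5966 lower (35.9%). Of the control genes past 2-fold that were tested there, 1852 of 1875 rising genes (98.8%) and 1401 of 1409 falling genes (99.4%) were called in the same direction in the stressed mice, and 0 in the opposite one. Over all control calls the shares were 88.2% and 86.8%, and 3 genes were called in opposite directions. The difference between the 2 age changes was itself tested by the interaction in 1 edgeR fit of 16 libraries. In that test 0 of 17139 genes passed, and the smallest adjusted p was 0.375. An unadjusted p below 0.05 was reached by 1031 genes, and about a share of 0.05 of all genes would reach it with no difference. DESeq2 called 12 genes (3 with the higher and 9 with the lower change in stressed mice). Without replicate 4 of the stressed mice at P1 edgeR called 90 genes, all with the lower change in stressed mice. Without control P14 replicate 4 it called 1, the retinol acyltransferase gene Lrat, which was at 2.64, 2.48, 2.66 and 0.0966 CPM in the control P14 libraries and was named after its values were seen.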

How the data were processed

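Polyadenylated RNA of the medial prefrontal cortex of male ICR mice was sequenced in 4 control and 4 prenatally stressed libraries at each age. Per the submitters' processing notes, cutadapt, STAR 2.7.3a, HTSeq, DESeq2 and the mouse build GRCm38 were used; the sources used here do not give the annotation release, the strand setting or the gene filter. The authors deposited 1 table per age of normalized signal values, read counts divided by a size factor per library. The values were whole multiples of a per-library step, within 0.0051 on the scale of the deposited values. This held for 100% of values in the control libraries and at least 99.97% in the stressed ones. Whole read counts were therefore recovered and joined on gene ID. These recovered counts, and not the deposited values, entered the count model as the main test, since they are the only scale common to both tables.

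The 8 control libraries were fitted with edgeR 4.0.16 (TMM, expression filter, robust quasi-likelihood, R 4.3.3), with a second test against 2-fold, and adjusted by the Benjamini-Hochberg method over 16520 genes at 0.05. Standard errors are the log2 change divided by the root of F. DESeq2 1.42.0 and limma 3.58.1, other scalings and filters and fits without each library were alternatives. The fits were also run on simulated counts in which few genes changed, as many up as down, unlike these data. That run does not test the scaling or the share of wrong calls where most genes change. Ratios of paired genes added 0.5 reads and used exact two-sided permutation tests over libraries. Replicate libraries differed by 6.48 to 31.6 times the sampling noise (chi-square per gene), so the spread between libraries sets the precision.

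The comparison, the gene lists and the pairs were chosen with earlier results of these data known. Named genes are the 12 largest rises and falls past 2-fold among genes of at least 20 CPM with no overlap, 4 members of each list by smallest p, the pairs, a fixed set of marker genes and the 8 smallest changes among genes of at least 200 CPM; all others were named after their values were seen, and are said so at the gene or stand here: Neurod6, Tbr1, Pdgfra, Gabra5, Ttr and Omp. Some genes that this rule names, and pairs with them, are not reported here. Gene positions come from a GENCODE annotation of GRCm38, and promoters and miRNAs from RefSeq tables of GRCm38.p6. A promoter check of base composition over whole gene sets was void, since 75.3% to 77.6% of genes had a promoter in the table. The stressed libraries entered a fit of their own, the test of the interaction and 1 alternative fit of all 16 libraries.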

Additional observations from a re-analysis of the deposited data

Results flagged for a closer look

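In 578 groups of 4 control libraries (genes, list sums and ratios at one age), 43 groups (7.44%) had a library that stood apart. Its gap to its nearest neighbour exceeded Dixon's 95% limit as a share of the group's range. Chance gives about 1 in 20 for independent groups chosen without regard to their values. The groups here include genes named after their values were seen, such as Lrat, Arc and Fos. List sums and ratios also count the reads of single genes again. The share of 7.44% therefore cannot be set against 1 in 20. The control libraries are described by age and replicate, and what set the flagged libraries apart was not tested.

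In P1 replicate 1, 7 values stood apart. Vim was highest at 179 CPM, against 152 to 154 CPM in the other 3 libraries, a gap of 0.91 of the range. Kcnc4 was lowest at 16.2 CPM, against 20.9 to 21.8 CPM in the other 3 libraries, a gap of 0.837 of the range. Mbp was lowest at 41.4 CPM, against 52.3 to 53.4 CPM in the other 3 libraries, a gap of 0.909 of the range. Dnmt3b was highest at 3.43 CPM, against 2.61 to 2.69 CPM in the other 3 libraries, a gap of 0.9 of the range. GABA receptor and chloride transporter genes summed to 1698 CPM, the lowest, against 1937 to 1951 CPM in the other 3 libraries, a gap of 0.945 of the range. The log2 read ratio Dnmt3a/Dnmt3b was lowest at 5.27, against 5.67 to 5.72 in the other 3 libraries, a gap of 0.875 of the range. The log2 read ratio Ptbp2/Ptbp1 was lowest at 0.86, against 1.13 to 1.18 in the other 3 libraries, a gap of 0.845 of the range.

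In P1 replicate 2, 2 values stood apart. Syn2 was highest at 114 CPM, against 90.3 to 92.2 CPM in the other 3 libraries, a gap of 0.916 of the range. Cyp46a1 was highest at 24.4 CPM, against 22.5 to 22.8 CPM in the other 3 libraries, a gap of 0.878 of the range.

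In P1 replicate 3, 7 values stood apart. Peg3 was highest at 113 CPM, against 72.3 to 75 CPM in the other 3 libraries, a gap of 0.932 of the range. Lin28b was highest at 2.53 CPM, against 1.02 to 1.18 CPM in the other 3 libraries, a gap of 0.892 of the range. Flt1 was lowest at 23.6 CPM, against 26.7 to 27.1 CPM in the other 3 libraries, a gap of 0.898 of the range. Otx2 was highest at 3.73 CPM, against 0.522 to 0.742 CPM in the other 3 libraries, a gap of 0.931 of the range. Ngfr was highest at 14.2 CPM, against 6.64 to 7.38 CPM in the other 3 libraries, a gap of 0.902 of the range. Slc2a1 was lowest at 44.4 CPM, against 49.8 to 50.9 CPM in the other 3 libraries, a gap of 0.838 of the range. Endothelial cell genes summed to 445 CPM, the lowest, against 526 to 529 CPM in the other 3 libraries, a gap of 0.962 of the range.

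In P1 replicate 4, 9 values stood apart. Dcx was highest at 1624 CPM, against 1280 to 1309 CPM in the other 3 libraries, a gap of 0.916 of the range. Tubb4a was highest at 654 CPM, against 503 to 525 CPM in the other 3 libraries, a gap of 0.851 of the range. Trp73 was highest at 16.2 CPM, against 14 to 14.2 CPM in the other 3 libraries, a gap of 0.877 of the range. Cacng4 was highest at 389.6 CPM, against 311 to 319 CPM in the other 3 libraries, a gap of 0.893 of the range. Col1a2 was highest at 211 CPM, against 178 to 182 CPM in the other 3 libraries, a gap of 0.873 of the range. Elavl3 was highest at 1003 CPM, against 835 to 851 CPM in the other 3 libraries, a gap of 0.905 of the range. Splicing and RNA-binding regulator genes summed to 5614 CPM, the highest, against 4845 to 4931 CPM in the other 3 libraries, a gap of 0.888 of the range. Clustered protocadherin genes summed to 953 CPM, the highest, against 774 to 787 CPM in the other 3 libraries, a gap of 0.926 of the range. The log2 read ratio Elavl4/Elavl2 was lowest at -0.57, against -0.32 to -0.27 in the other 3 libraries, a gap of 0.852 of the range.

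In P14 replicate 1, 8 values stood apart. Tubb4a was highest at 1265 CPM, against 1094 to 1122 CPM in the other 3 libraries, a gap of 0.84 of the range. Camk2b was highest at 1198 CPM, against 1036 to 1063 CPM in the other 3 libraries, a gap of 0.832 of the range. Rbp4 was lowest at 13.5 CPM, against 16.5 to 17 CPM in the other 3 libraries, a gap of 0.85 of the range. Dnmt3b was highest at 0.860 CPM, against 0.507 to 0.560 CPM in the other 3 libraries, a gap of 0.851 of the range. Microglia genes summed to 488 CPM, the lowest, against 524 to 531 CPM in the other 3 libraries, a gap of 0.848 of the range. Endothelial cell genes summed to 539.7 CPM, the highest, against 479.8 to 488 CPM in the other 3 libraries, a gap of 0.86 of the range. Cholesterol genes summed to 2970 CPM, the highest, against 2457 to 2521 CPM in the other 3 libraries, a gap of 0.875 of the range. The log2 read ratio Ldhb/Ldha was lowest at -1.09, against -0.91 to -0.89 in the other 3 libraries, a gap of 0.902 of the range.

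In P14 replicate 2, 2 values stood apart. Nap1l1 was highest at 222 CPM, against 203 to 204 CPM in the other 3 libraries, a gap of 0.94 of the range. Proliferation genes summed to 209 CPM, the lowest, against 220.3 to 221 CPM in the other 3 libraries, a gap of 0.941 of the range.

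In P14 replicate 3, 4 values stood apart. Slit3 was lowest at 35.9 CPM, against 42.2 to 42.8 CPM in the other 3 libraries, a gap of 0.914 of the range. Arc was highest at 181 CPM, against 57.6 to 78 CPM in the other 3 libraries, a gap of 0.836 of the range. Fos was highest at 54.2 CPM, against 23.8 to 26.8 CPM in the other 3 libraries, a gap of 0.902 of the range. Npas4 was highest at 40.9 CPM, against 15 to 19.4 CPM in the other 3 libraries, a gap of 0.83 of the range.

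In P14 replicate 4, 4 values stood apart. Dlg3 was lowest at 283 CPM, against 298 to 299.6 CPM in the other 3 libraries, a gap of 0.883 of the range. Kcnab2 was lowest at 241 CPM, against 268 to 269.8 CPM in the other 3 libraries, a gap of 0.932 of the range. Lrat was lowest at 0.0966 CPM, against 2.48 to 2.66 CPM in the other 3 libraries, a gap of 0.931 of the range. Olfactory bulb genes summed to 343 CPM, the lowest, against 389 to 392 CPM in the other 3 libraries, a gap of 0.937 of the range.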

How the results depend on the processing

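No alternative reversed any of the 12189 calls into a call in the other direction, while the counts moved with the setting. Over the leave-one-out fits 5736 to 5916 genes were higher and 5962 to 6316 lower at P14, and 1814 to 1927 and 1308 to 1447 were past 2-fold. Calls numbered 6069 and 6084 with size factors of the RLE kind, 5332 and 7003 with upper-quartile scaling, 6074 and 6435 with no filter, 6039 and 6036 with DESeq2 and 5970 and 6239 with limma. Past 2-fold, limma on log2(CPM + 1) gave 1329 higher and 800 lower, limma with 0.1 added gave 1636 and 1081, and DESeq2 gave 1662 and 1067. Asking for 1.5-fold in place of 2-fold gave 3276 higher and 2961 lower.

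With total reads as the scale the medians of upper-layer projection neurons (-0.0546) and medial eminence interneurons (-0.00205) turned negative, as did Gabra5 (-0.0375), Hsp90ab1 (-0.21) and Nap1l1 (-0.21), and Pja1 passed as lower (-0.22). The median of the red cell list turned to -0.0213 there, by less than its spread between replicates. Without P1 replicate 1 the medians of the striatum (0.26; -0.391 to 0.26 over all leave-one-out fits) and of the thyroid and retinoid list (0.45) turned positive. Of the single gene values under alternatives 3963 kept direction and call, 25 lost a call, 18 gained it, and 35 turned sign in 10 genes while uncalled under both settings, among them Slc12a2, Slc17a6, Tubb2a and Hbb-bs with total reads and Tbx21 without P1 replicate 1. Ratios lost their call, where 4 against 3 libraries were left, in 11 cases, for Gria1/Gria4, Ldhb/Ldha and Vamp1/Vamp2. The interaction with prenatal stress gave 12 genes with DESeq2, 0 to 90 in the leave-one-out fits (90 without replicate 4 of the stressed mice at P1 and 1 without control P14 replicate 4) and 0 in the other settings.

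No pairing of samples by replicate number was visible. The deviations of same-numbered P1 and P14 controls correlated at -0.11, 0.07, 0.13 and -0.05, and those of differently numbered ones at -0.23 to 0.176. Such correlations could miss a pairing and cannot exclude one. With the replicate block 5868 genes were higher and 6090 lower (1904 and 1401 past 2-fold), the interaction gave 0 genes, Calb2 (0.5) and Pdgfra (-0.18) passed and Grin2b (0.34) did not. The shallowest library held 15068575 reads and the deepest 72978561, so values of genes under 1 CPM rest on few reads there.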

Other observations

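Genes listed in only 1 of the 2 tables were left out of every comparison. There are 1480 such genes for P1 and 746 for P14, with at most 0.018% and 0.023% of a control library's reads. Among those in the P14 table only, the mean CPM over the 4 controls was 75.6 for Mobp (a myelin protein of oligodendrocytes), 6.26 for Pvalb (parvalbumin, of fast-spiking interneurons), 5.53 for Colq, 1.70 for Opalin (a myelin membrane protein) and 1.28 for Nkx6-2 (a factor of oligodendrocytes). Among those in the P1 table only it was 5.47 for Igf2bp1 (a fetal RNA-binding protein), 2.60 for Veph1, 0.25 for Gbx2 (a homeobox factor) and 0.12 for Folr1. A gene absent from a table has no value there, so no fold is given, and these genes were chosen after their values were seen.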
